A study of Mus musculus with 2 samples.

Results

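The 8 genes described here encode molecules that antigen-presenting cells use to act on T cells beside the antigen itself: Cd80, Cd86, Cd40, Icosl, Tnfsf9, Cd48, Icam1 and Il15. They were chosen by symbol, and all 8 were found once each among the 31054 features counted in both libraries. The data were single-cell RNA counts from mouse tumours: 1 library from adult mice of 24 weeks and 1 library from young mice of 4 weeks, both made from pooled tumours and both labelled with the stage d7. In both, cells were sorted for mCherry, a red fluorescent protein, and turned into libraries by 10x Genomics chemistry (3' v2). Everything below is thus from cells sorted for mCherry, though most of them held few mCherry UMIs. The labels give no strain, tumour line, sex, treatment or number of pooled animals, and they do not say which cells made the mCherry.

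A T cell that meets its antigen needs further signals from the presenting cell to divide, survive and become an effector. CD80 and CD86 bind CD28 and the inhibitory receptor CTLA-4 on T cells, ICOS ligand binds ICOS, and the TNF family ligand encoded by Tnfsf9 binds the receptor encoded by Tnfrsf9. CD48 binds CD2 and the receptor encoded by Cd244, ICAM-1 is the adhesion ligand of the integrin built from the Itgal and Itgb2 products, and IL-15 is a cytokine held on the IL-15 receptor alpha chain and shown to cells that carry the Il2rb and Il2rg chains. CD40 is itself a receptor on the presenting cell: CD40 ligand on helper T cells engages it and, through TRAF adaptors and NF-kB, raises costimulatory molecules on dendritic cells. Monocytes and macrophages depend on the receptor encoded by Csf1r, and dendritic cells that mature and leave for lymph nodes switch on the chemokine receptor CCR7.

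On the mouse build mm10 (GRCm38, GENCODE release 21), Cd80 lies at chr16:38455561-38496335 on the plus strand and Cd86 at chr16:36603869-36666081 on the minus strand. Cd40 lies at chr2:165055627-165072948, Icosl at chr10:78069302-78083913 and Tnfsf9 at chr17:57105325-57107757, all on the plus strand. Cd48 lies at chr1:171682009-171705258 and Icam1 at chr9:21015985-21028817 on the plus strand, and Il15 at chr8:82331632-82403222 on the minus strand. All 8 are annotated as protein coding.

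Promoter windows of 250 bases before to 50 bases after the RefSeq start were matched by symbol for 4 of the 8 genes, Cd80, Icosl, Cd48 and Icam1, on GRCm38.p6. The windows of Cd80, Icosl and Icam1 are shown because Cd80 was among the genes higher in Ccr7 cells together with NF-kB genes, and because Icam1 was the gene closest to Icosl in its pattern over cell classes. They are the plus strand of chr16:38458683-38458982, chr10:78069118-78069417 and chr9:21015690-21015989. The Cd80 window lies inside the gene as GENCODE annotates it. Capitals mark matches on either strand to GGG and CC with any 5 bases between them, the core letters of NF-kB sites, and to TTCNNNGAA, the letters of sites bound by STAT factors.
Cd80: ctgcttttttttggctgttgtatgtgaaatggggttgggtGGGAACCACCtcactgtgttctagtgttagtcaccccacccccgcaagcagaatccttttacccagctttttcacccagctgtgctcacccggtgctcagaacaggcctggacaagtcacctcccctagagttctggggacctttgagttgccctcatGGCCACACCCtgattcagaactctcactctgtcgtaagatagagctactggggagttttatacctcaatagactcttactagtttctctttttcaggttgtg
Icosl: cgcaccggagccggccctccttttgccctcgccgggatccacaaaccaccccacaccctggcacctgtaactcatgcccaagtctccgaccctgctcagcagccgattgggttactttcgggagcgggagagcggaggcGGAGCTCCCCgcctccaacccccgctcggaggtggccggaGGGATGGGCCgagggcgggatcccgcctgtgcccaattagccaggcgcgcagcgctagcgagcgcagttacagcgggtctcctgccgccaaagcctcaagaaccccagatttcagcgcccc
Icam1: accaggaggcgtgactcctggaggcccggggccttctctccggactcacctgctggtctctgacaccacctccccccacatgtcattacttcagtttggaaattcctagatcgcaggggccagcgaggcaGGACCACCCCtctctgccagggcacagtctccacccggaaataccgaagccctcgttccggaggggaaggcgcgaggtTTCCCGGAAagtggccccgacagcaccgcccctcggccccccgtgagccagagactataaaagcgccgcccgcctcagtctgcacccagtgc
Cd80 and Icosl each held 2 matches to the NF-kB letters, and Icam1 held 1 match to them and 1 to TTCNNNGAA. No match to the interferon-type letters, GAAA repeated after any 2 bases, lay in any of the 4 windows, and the Cd48 window held no match to any of the 3 motifs. Among all 32851 RefSeq promoter windows of the same length, 50.8% held the NF-kB letters, 8.30% held TTCNNNGAA and 3.44% held the interferon-type letters, so the first of these is common in such windows and the matches describe letters only.

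The adult library held 6279 barcodes and 70988070 unique molecular identifiers (UMIs, each marking 1 captured RNA molecule), and the young library 7558 barcodes and 84862471 UMIs. After barcodes with fewer than 200 genes or above 10% mitochondrial UMIs were removed, 5774 adult and 7090 young cells remained, with medians of 9660 and 9842 UMIs per cell. Of the barcodes, 111 occurred in both libraries (1.77% of the adult and 1.47% of the young ones). Each age is a single library, so no p-value is given. Levels are UMIs per 1000000 UMIs of the summed cells of a class (CPM), the intervals are exact 95% Poisson or binomial intervals that cover counting error only, and a difference between animals, pools or library preparations cannot be told apart from age. A gene was called higher or lower where it reached 10 CPM in at least 1 of the 2 groups, differed by at least 1.5-fold and had an interval that excluded 1.

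Cells were put into classes by a few marker UMIs that include none of the 8 genes. Csf1r cells had at least 1 Csf1r UMI and fewer than 2 mCherry UMIs, and made up 4227 adult and 5357 young cells (73.2% and 75.6%). Ccr7 cells had at least 2 Ccr7 UMIs, fewer than 2 mCherry UMIs and no T or B cell marker, and numbered 72 and 66. mCherry-high cells had at least 10 mCherry UMIs and numbered 476 and 423, with medians of 31335 and 32751 UMIs per cell, against 10055 and 10314 in Csf1r cells. mCherry RNA stood at 3408 CPM in adult and 3290 CPM in young mCherry-high cells, against 14.5 and 14.1 CPM in Csf1r cells. Of the Csf1r cells, 3556 adult and 4531 young ones held 0 mCherry UMIs. Whether cells with few mCherry UMIs held the protein cannot be read from the counts. Csf1r cells carried monocyte and macrophage markers: Lyz2 stood at 5785 CPM in the adult and 7005 CPM in the young library, Fcgr1 at 618 and 885 CPM, Cd68 at 457 and 548 CPM, and Adgre1 at 86.6 and 103 CPM. Ccr7 cells carried the markers of mature dendritic cells: Fscn1 stood at 851 CPM in adult and 626 CPM in young Ccr7 cells, against 0.91 and 0.73 CPM in Csf1r cells, and Ccl22 at 1556 and 1572 CPM, against 6.06 and 2.20 CPM. The dendritic cell lineage genes Flt3 (57.7 and 49.4 CPM, against 0.19 and 0.09 CPM in Csf1r cells) and Zbtb46 (28.3 and 31.2 CPM, against 0.30 and 0.20 CPM) were likewise near 0 outside them. A Csf1r UMI was still present in 52.8% of adult and 50% of young Ccr7 cells. Over all Ccr7 cells Lyz2 stood at 3074 CPM in the adult and 2321 CPM in the young library, and in those with a Csf1r UMI at 4849 and 3492 CPM. The dendritic cell markers lay mostly in cells with 5 or more Ccr7 UMIs, 46 in each library, where Fscn1 stood at 1256 CPM in adult and 860 CPM in young cells. In the 26 adult and 20 young cells with 2 to 4 Ccr7 UMIs, Fscn1 stood at 3.50 CPM (1 UMI) and 140 CPM, Zbtb46 had 0 and 1 UMIs, and Lyz2 stood at 4396 and 5243 CPM, so the label of mature dendritic cells holds for part of the class.

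Of the 8 genes, 5 were higher in Ccr7 cells than in Csf1r cells of both libraries and 0 were lower, where 10.6% of the 6582 features measured in both libraries were higher and 10.9% lower by the same rule. The 5 were Cd40, Tnfsf9, Cd80, Il15 and Cd86. The median log2 ratio of the 8 genes was 0.93 in the adult and 0.87 in the young library, against -0.07 and -0.11 over all measured features, on the scale of log2(CPM + 5).

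Cd40 stood at 287 CPM in Ccr7 cells, against 87.7 CPM in Csf1r cells, in the adult library, a ratio of 3.27 (95% interval 2.87 to 3.72). In the young library it stood at 268 CPM, against 81.7 CPM, a ratio of 3.28 (2.84 to 3.77). The ratio was nearly equal in both libraries, and the intervals of the Ccr7 cells lay far above those of every part of the Csf1r cells. After each cell was thinned to 4000 UMIs, with its class kept, 58.8% of adult and 49.2% of young Ccr7 cells had a Cd40 UMI (76.4% and 77.3% unthinned). In Csf1r cells the shares were 26.1% and 25.7% (46.2% and 46.7% unthinned). In mCherry-high cells the thinned share was 1.32% and 3.23% (16.6% and 19.4% unthinned).

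Tnfsf9 stood at 147 CPM in adult Ccr7 cells, against 43.9 CPM in adult Csf1r cells, a ratio of 3.35 (2.78 to 4.00). In the young library it stood at 141 CPM, against 51.4 CPM, a ratio of 2.74 (2.24 to 3.31). Its UMIs were concentrated in part of the cells, with up to 19 UMIs in 1 adult and 15 in 1 young Ccr7 cell, and 48.6% and 53.0% of Ccr7 cells had any.

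The CD28 ligands followed at smaller ratios. Cd80 had 72 UMIs, or 81.4 CPM, in adult Ccr7 cells, against 33.2 CPM in adult Csf1r cells (ratio 2.45, 1.91 to 3.11), and 59 UMIs, or 76.8 CPM, in young Ccr7 cells, against 24.5 CPM (ratio 3.14, 2.38 to 4.07). Cd86 stood at 348 CPM in adult Ccr7 cells, against 202 CPM in adult Csf1r cells (ratio 1.72, 1.53 to 1.93). In the young library Cd86 stood at 429 CPM, against 237 CPM (ratio 1.81, 1.62 to 2.02). For both genes the Ccr7 intervals were above those of all 5 parts of the Csf1r cells. Cd80 and Cd86 were found together in 22.1% of adult and 14.8% of young Ccr7 cells at 4000 UMIs, and in 6.90% and 5.28% of Csf1r cells.

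Il15 rested on 22 UMIs in the Ccr7 cells of each library. It stood at 24.9 CPM in adult Ccr7 cells, against 9.01 CPM in adult Csf1r cells (ratio 2.76, 1.71 to 4.23), and at 28.6 CPM in young Ccr7 cells, against 13 CPM (ratio 2.20, 1.37 to 3.36). Thinned to 4000 UMIs and gated again, which left 51 adult and 44 young Ccr7 cells, Il15 was called in neither library.

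Of the other 3 genes, Icam1 was called in the young library alone: it stood at 162 CPM in adult Ccr7 cells, against 111 CPM in Csf1r cells (ratio 1.46, 1.23 to 1.72), and at 170 CPM in young Ccr7 cells, against 104 CPM (ratio 1.63, 1.36 to 1.94). Whether these 2 ratios differ was not tested, and their intervals overlap. Cd48 stood at 79.1 CPM in adult Ccr7 cells, against 91.2 CPM (ratio 0.87, 0.68 to 1.10), and at 82.0 CPM in young ones, against 88.0 CPM (ratio 0.93, 0.72 to 1.19). Icosl had 9 adult and 13 young UMIs in Ccr7 cells, too few to set its level apart from that of Csf1r cells (ratios 1.12, 0.51 to 2.14, and 1.83, 0.97 to 3.16). The leukocyte gene Ptprc stood at 163 CPM in adult and 193 CPM in young Ccr7 cells, against 213 and 234 CPM in Csf1r cells.

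**Figure D1:**
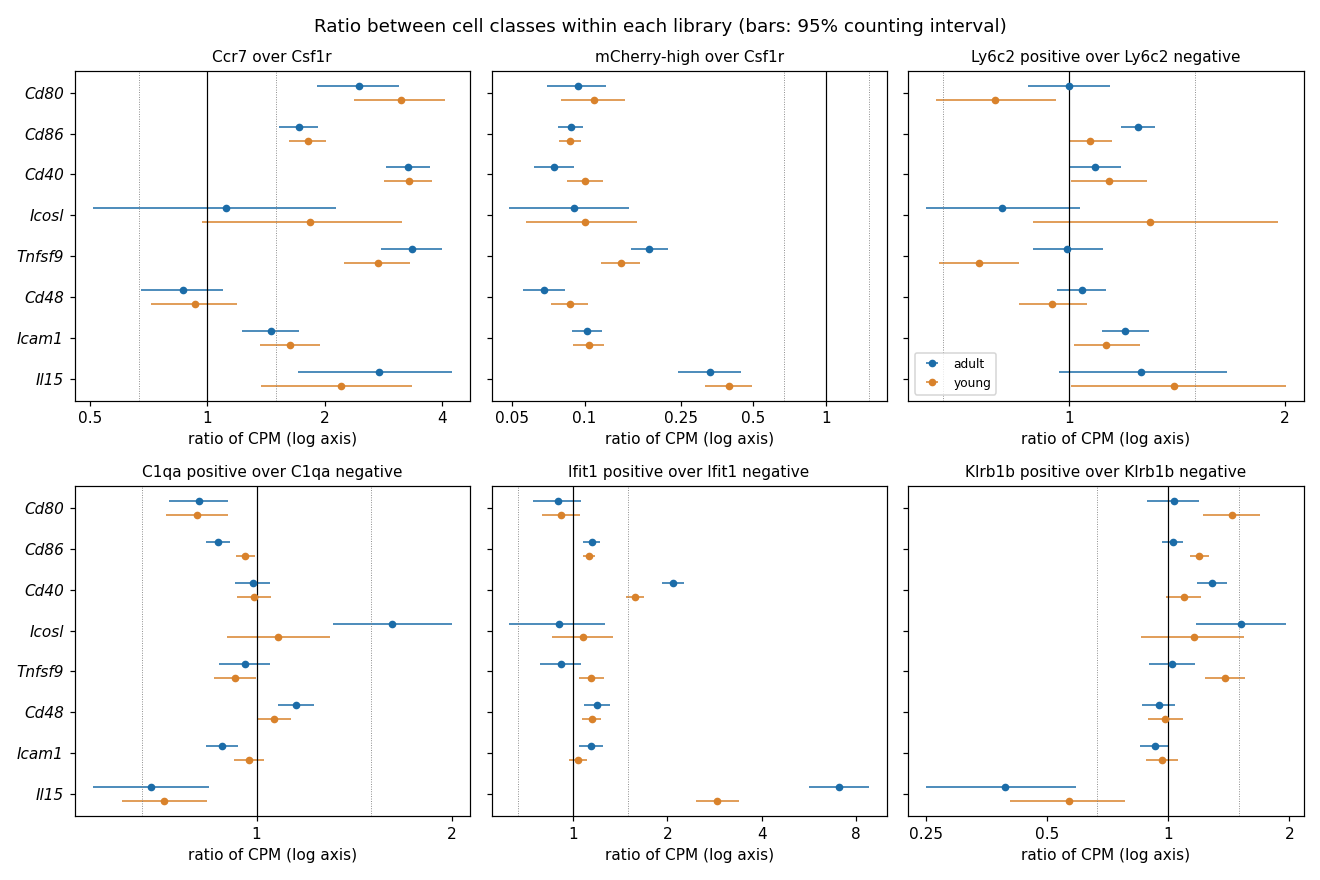
Ratio of each gene between 2 cell classes within each library, on log axes, one panel per pair of classes; points are ratios of CPM, bars are 95% counting intervals, the solid line is 1 and the dotted lines are 1.5-fold. Cd40, Tnfsf9 and Cd80 lie between 2.45 and 3.35 in Ccr7 over Csf1r cells, all 8 genes lie left of 1 in mCherry-high over Csf1r cells, and Il15 lies farthest right in Ifit1-positive over Ifit1-negative cells (7.06 adult, 2.89 young).

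The levels of Cd40, Tnfsf9, Cd80 and Cd86 were higher still where the Ccr7 cells were defined more narrowly. In the cells with 5 or more Ccr7 UMIs Cd40 stood at 351 CPM in adult and 301 CPM in young cells, and Cd80 at 95.2 and 94.5 CPM. In those with 2 to 4, which carried few dendritic cell markers, Cd40 stood at 154 and 200 CPM, and Cd80 at 52.5 CPM on 15 UMIs and 40.0 CPM on 10 UMIs. In the 34 adult and 33 young Ccr7 cells with no Csf1r UMI, Cd40 stood at 430 and 476 CPM, against 196 and 136 CPM in the 38 adult and 33 young Ccr7 cells with one. Tnfsf9 stood at 253 and 201 CPM without, against 79.6 and 102 CPM with a Csf1r UMI. Cd86 stood at 436 and 584 CPM, against 293 and 332 CPM, and Cd80 at 116 and 104 CPM, against 59.2 and 59.5 CPM. For Cd40, Tnfsf9 and Cd86 the intervals of the Ccr7 cells without and with a Csf1r UMI do not overlap in either library, and for Cd80 they overlap in both. Cd48 stood at 73.5 CPM in adult and 75.2 CPM in young cells with 5 or more Ccr7 UMIs, against 91.0 and 95.9 CPM with 2 to 4. Without a Csf1r UMI Cd48 stood at 55.2 and 101 CPM, against 94.4 and 70.1 CPM with one. Icam1 stood at 160 and 206 CPM with 5 or more Ccr7 UMIs, against 164 and 95.9 CPM with 2 to 4.

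The genes around these ligands were counted from lists of related genes. Of 16 other costimulatory ligands and cytokines found, 10 were measured in both libraries, of which 8 were higher and 2 lower in Ccr7 cells. Cd70, the ligand of CD27, had 46 adult and 42 young UMIs in Ccr7 cells (52.0 and 54.6 CPM), against 4 and 4 UMIs in the far more numerous Csf1r cells (0.09 and 0.07 CPM). Tnfsf4, the ligand of OX40, had 36 and 23 UMIs (40.7 and 29.9 CPM), against 3 and 4 UMIs. Il12b, a chain of the cytokines IL-12 and IL-23, stood at 93.8 and 131 CPM, against 0.37 and 0.12 CPM. Cd83, a surface marker of mature dendritic cells, stood at 568 and 777 CPM, against 114 and 80.3 CPM. The 2 lower genes were the cytokine genes Il18 (ratios 0.40 adult and 0.49 young) and Il27 (0.23 and 0.40).

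The partner of Il15 at the cell surface, Il15ra, was 1 of the 8 and is named for that partnership after its values were seen. It stood at 67.8 CPM in adult Ccr7 cells, against 25.7 CPM in adult Csf1r cells (ratio 2.64), and at 98.9 CPM in young Ccr7 cells, against 29.7 CPM (ratio 3.33). Of 14 CD40 and NF-kB signalling genes, 8 were higher in both libraries and 0 lower. Map3k14, the kinase of the alternative NF-kB pathway, stood at 101 and 137 CPM in adult and young Ccr7 cells, against 9.44 and 8.06 CPM in Csf1r cells (ratios 10.7 and 16.9). The adaptor Traf1 had ratios of 6.55 and 7.18, and the NF-kB subunit Relb 6.28 and 5.86, adult and young. Of the 4 coinhibitory ligands, Pdcd1lg2, a ligand of PD-1, was higher (ratios 2.44 and 3.43), and Lgals9 (0.44 and 0.58) and Vsir (0.45 and 0.47) were lower.

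Ccr7 cells also carried RNA of some of the receptors. Of 7 receptor genes measured in both libraries, 3 were higher and 2 lower. Tnfrsf9, the receptor of the Tnfsf9 product, stood at 268 CPM in adult and 390 CPM in young Ccr7 cells, against 45.4 and 38.5 CPM in Csf1r cells (ratios 5.90 and 10.1). Tnfrsf4 (ratios 13.9 and 10.0) and Tnfrsf18 (8.27 and 6.47) were the other two, and the integrin chains Itgal (0.47 and 0.47) and Itgb2 (0.45 and 0.43) were the lower ones. Cd3e, Cd3d and Cd79a are at 0 in Ccr7 cells by the gate, and the T cell list of 6 genes summed to 7.91 and 1.30 CPM there.

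Within the Csf1r cells, 4 splits were made, each by 1 marker: Ly6c2 of inflammatory monocytes, C1qa of macrophages, Ifit1 of the interferon response and Klrb1b. Of the 7 of the 8 genes measured in both libraries, 2 were higher in Ifit1-positive cells, Il15 and Cd40, and 0 were lower, where 2.47% of 6201 features were higher and 0.0968% lower.

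Il15 stood at 34.6 CPM in the 404 adult Csf1r cells with at least 2 Ifit1 UMIs, against 4.91 CPM in the 3308 with none, a ratio of 7.06 (5.67 to 8.79). In the young library it stood at 26.3 CPM in 941 cells, against 9.12 CPM in 3459 cells, a ratio of 2.89 (2.46 to 3.39). The intervals of the 2 ratios do not overlap, and the difference rests on both groups: adult cells were higher than young ones with Ifit1 and lower without it. Cd40 stood at 158 CPM in adult Ifit1-positive cells, against 76.0 CPM in negative ones (ratio 2.08, 1.92 to 2.26), and at 113 CPM in young Ifit1-positive cells, against 71.5 CPM (ratio 1.58, 1.47 to 1.69). With any Ifit1 UMI against none, Cd40 had a log2 ratio of 0.43 in the young library and was no longer called there, while Il15 was called in both.

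The other genes lay within 1.2-fold of the Ifit1-negative cells in both libraries. Their ratios were 0.89 and 0.92 for Cd80, 1.14 and 1.12 for Cd86, 0.91 and 1.14 for Tnfsf9, 0.90 and 1.08 for Icosl, 1.19 and 1.15 for Cd48, and 1.14 and 1.04 for Icam1, adult and young. Thus Cd80 and Cd86, which were higher in Ccr7 cells beside Cd40 and Il15, were not called in this split. Of the related genes, Il15ra was higher in Ifit1-positive cells (48.5 CPM, against 22.2 CPM, ratio 2.18, adult; 44.7 CPM, against 24.0 CPM, ratio 1.86, young), as was the coinhibitory ligand gene Lgals9 (ratios 1.73 and 1.59). Tnfrsf9 was lower (0.63 and 0.62), and 0 of 13 CD40 and NF-kB genes were called in either direction.

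With cells grouped by their number of Ifit1 UMIs, bins chosen after the split had been seen, Il15 went up bin by bin in both libraries. In the adult library it stood at 4.91 CPM with 0 Ifit1 UMIs, 13.3 CPM with 1, 21 CPM with 2 to 4 and 63.3 CPM with 5 or more. In the young library the 4 levels were 9.12, 12.2, 20.8 and 39.5 CPM. With 1 and with 2 to 4 Ifit1 UMIs the adult and young Il15 intervals overlapped. The adult level was higher, with intervals apart, only in cells with 5 or more. Cd40 stood at 76.0, 102, 139 and 199 CPM in the adult and at 71.5, 83.6, 104 and 134 CPM in the young library. Icam1 spanned 108 to 127 CPM in the adult and 103 to 114 CPM in the young library over the same bins. Cd86 stood at 197 CPM with 0 and 233 CPM with 5 or more Ifit1 UMIs in the adult, and at 228 and 289 CPM in the young library. For Cd80 these levels were 34.1 and 22.4 CPM, and 25.5 and 23.9 CPM. The neutrophil gene S100a8 stood at 88.8 and 285 CPM in the adult and at 74.3 and 160 CPM in the young library, and Cxcr2 at 1.85 and 6.60 CPM, and 0.52 and 9.57 CPM. The median depth of the bins was alike, 9951 to 10746 UMIs in the adult and 10082 to 11094 UMIs in the young library.

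**Figure D2:**
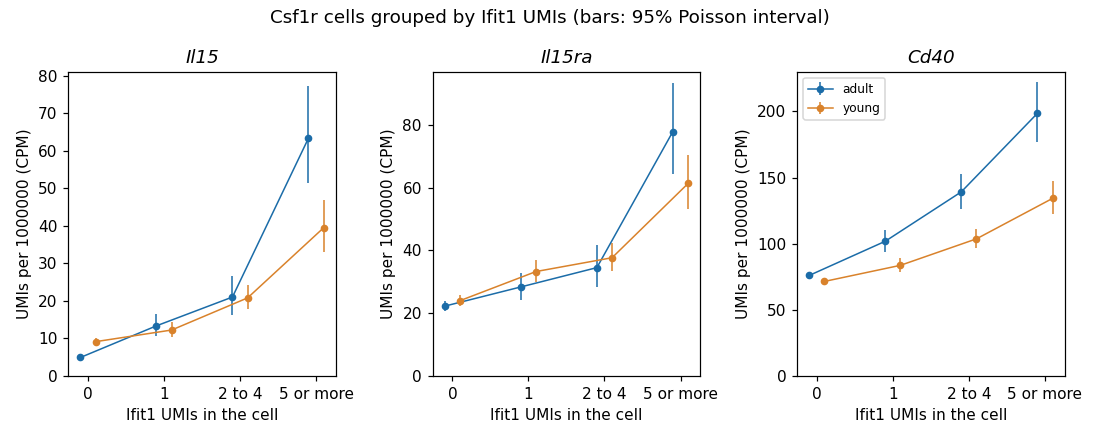
Level of Il15, of its receptor chain gene Il15ra and of Cd40 (CPM, vertical axis) in Csf1r cells grouped by the number of Ifit1 UMIs per cell (horizontal axis), adult in blue and young in orange, with 95% Poisson intervals. Il15 goes up to 63.3 CPM in adult and 39.5 CPM in young cells with 5 or more Ifit1 UMIs, against 4.91 CPM in adult and 9.12 CPM in young cells with 0.

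Transcripts of other cells moved with this split. The 5 neutrophil markers, none of them at 0, summed to 398 CPM in adult and 242 CPM in young Ifit1-positive cells, against 166 and 119 CPM in Ifit1-negative cells, and to 60122 and 42195 CPM in the neutrophil gate described below. Without Csf1r cells that held a Cxcr2 or Retnlg UMI or more than 1 S100a8 UMI, the Il15 ratio was 6.80 (5.38 to 8.59) in the adult and 3.0 (2.52 to 3.56) in the young library. The 3 fibroblast markers (Col1a1, Pdgfra and Dcn), none at 0, summed to 47.4 CPM in adult and 1.60 CPM in young Ifit1-positive cells, against 1.88 and 1.07 CPM in negative ones. Without Csf1r cells that held any UMI of these 3, the Il15 ratio was 7.04 (5.65 to 8.77) in the adult and 2.90 (2.47 to 3.41) in the young library, and the Cd40 ratio 2.06 and 1.58. Both alternatives were chosen after seeing the data, and neither was run on the bins by number of Ifit1 UMIs.

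In the Klrb1b split, 1 of the 8 genes, Il15, was lower in Klrb1b-positive cells of both libraries and 0 were higher, where 2.88% of 6291 features were lower and 2.15% higher. Klrb1b, a lectin-like receptor gene, was taken because it marked Csf1r cells rich in antigen-presentation transcripts: a list of these, with Klrb1b itself in it, summed to 42997 CPM in 398 adult and 38860 CPM in 325 young Klrb1b-positive cells, against 17602 and 13285 CPM in negative ones. Il15 stood at 4.05 CPM in adult Klrb1b-positive cells, on 25 UMIs, against 10.3 CPM in negative ones (ratio 0.39, 0.25 to 0.59), and at 8.0 CPM in young ones, on 41 UMIs, against 14.1 CPM (ratio 0.57, 0.40 to 0.78). The call was lost in the adult library after thinning with cells gated again on the thinned counts (log2 ratio -0.27, against -0.76). It was also lost there without cells with neutrophil transcripts (-0.71), where no adult group reached 10 CPM. Klrb1b-positive cells were deeper, with medians of 15028 UMIs in adult and 14853 UMIs in young cells, against 9470.5 and 9976 UMIs in negative ones. The neutrophil list summed to 83.2 CPM in adult and 45.3 CPM in young Klrb1b-positive cells, against 234 and 185 CPM in negative ones.

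Icosl was higher in Klrb1b-positive cells of the adult library alone, at 12.6 CPM on 78 UMIs, against 8.32 CPM in negative ones (ratio 1.52, 1.17 to 1.96). In the young library it stood at 10.5 CPM, against 9.10 CPM (1.16, 0.86 to 1.54). After thinning, with cells gated again on the thinned counts, the adult ratio lay on the other side of 1 (log2 ratio -0.82). The ratios of Cd86 (1.03 and 1.20), Cd40 (1.29 and 1.09), Cd48 (0.95 and 0.98) and Icam1 (0.93 and 0.97), adult and young, were not called.

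Cd80 and Tnfsf9 were not called in the Klrb1b split either: the ratio of Cd80 was 1.03 (0.89 to 1.19) in the adult and 1.44 (1.22 to 1.69) in the young library, and that of Tnfsf9 1.02 (0.90 to 1.16) and 1.38 (1.23 to 1.55). Their adult and young intervals do not overlap, and the difference between libraries was not tested. The receptor gene Tnfrsf9 was higher in Klrb1b-positive cells, at 87.5 CPM in adult and 107 CPM in young cells, against 37.8 and 31.1 CPM (ratios 2.32 and 3.45), and so were Pdcd1lg2 (1.82 and 2.43), 1 of 4 coinhibitory ligands, and Map3k14 (1.85 and 1.52), 1 of 14 CD40 and NF-kB genes. Il18, 1 of 6 other costimulatory genes, was lower (0.32 and 0.36).

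In the Ly6c2 and C1qa splits 0 of the 8 genes were called in both libraries, of 6 and 7 measured. Few features were: 0.447% higher and 0.719% lower of 6261 in the Ly6c2 split, and 0.707% higher and 1.01% lower of 6225 in the C1qa split. Ly6c2-positive cells made up 66.5% of adult and 82.3% of young Csf1r cells. A list of C1q macrophage genes summed to 6036 CPM in adult and 7531 CPM in young Ly6c2-positive cells, against 9871 and 7970 CPM in negative ones. The Ly6c2 split thus did not cleanly set monocytes apart from macrophages. Cd86 stood at 215 CPM in adult and 241 CPM in young Ly6c2-positive cells, against 172 and 225 CPM in Ly6c2-negative cells (ratios 1.25 and 1.07). Icosl was called in the adult C1qa split alone, at 11.2 CPM in C1qa-positive cells, against 6.95 CPM in negative ones (ratio 1.62, 1.31 to 2.0), with 9.57 and 8.86 CPM in the young library. Il15 stood at 7.27 CPM in adult and 11.3 CPM in young C1qa-positive cells, against 10.6 and 15.6 CPM in negative ones (ratios 0.69 and 0.72). Its receptor chain gene Il15ra was higher in Ly6c2-positive cells (ratios 1.64 and 1.64) and lower in C1qa-positive cells (0.63 and 0.67), and Tnfrsf9 was lower in Ly6c2-positive cells (0.57 and 0.25). Il18 was higher in Ly6c2-positive cells (2.92 and 1.59) and the adaptor gene Traf1 lower in C1qa-positive cells (0.51 and 0.58). No coinhibitory ligand was called in both libraries in either split.

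Between the ages, 0 of the 7 of the 8 genes measured in Csf1r cells were higher in adult and 0 lower, where 2.51% of 6485 features were higher and 3.42% lower. The median log2 ratio of the 7 was 0.05, against -0.04 for all features measured. Each gene is given for the whole class and then within 5 disjoint parts of it, filled in order. Cells with at least 2 Klrb1b UMIs came first, then those with at least 2 Ifit1 UMIs. The Ly6c2 part had at least 2 Ly6c2 and fewer than 5 C1qa UMIs, and the C1qa part at least 5 C1qa and fewer than 2 Ly6c2 UMIs. The rest took in cells high in both. The Klrb1b part was 9.42% of adult and 6.07% of young Csf1r cells, and the Ifit1 part 8.54% and 16.3%. The Ly6c2 part was 35.7% and 34.5%, the C1qa part 12.2% and 5.47%, and the rest 34.1% and 37.6%. All C1qa-positive cells together were 41.3% of adult and 46.2% of young Csf1r cells.

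Cd80 stood at 33.2 CPM in adult and 24.5 CPM in young Csf1r cells, a ratio of 1.36 (1.26 to 1.46). Its ratio was 1.03 to 1.44 in the 5 parts, with intervals that held 1 in the Klrb1b (0.84 to 1.27) and C1qa (0.95 to 1.68) parts. Cd86 stood at 202 CPM in adult and 237 CPM in young Csf1r cells, a ratio of 0.85 (0.83 to 0.88). Its ratio was 0.75 to 0.94 in the parts, with an interval that held 1 in the Ifit1 part (0.87 to 1.01). The 2 CD28 ligands thus lay on opposite sides of 1 in these libraries, each short of 1.5-fold.

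Il15 stood at 9.01 CPM in adult and 13 CPM in young Csf1r cells, a ratio of 0.69 (0.61 to 0.78). It was called lower in adult where Csf1r cells needed at least 2 Csf1r UMIs or 0 mCherry UMIs. After thinning to 4000 UMIs, with cells gated again, the log2 ratio of Il15 was -0.07, against -0.36 without thinning. Within the parts the ratio was 1.38 (1.13 to 1.69) in Ifit1 cells, at 38.5 CPM in adult and 27.9 CPM in young, but 0.51 to 0.69 in the other 4 parts. Among those 4, the Ly6c2 part stood at 7.76 CPM in adult and 11.3 CPM in young cells (0.68, 0.54 to 0.87), and the Klrb1b part at 4.05 and 8.0 CPM (0.51, 0.30 to 0.85). In the Klrb1b part and the rest Il15 was under 10 CPM in both libraries, and in the C1qa part its interval (0.43 to 1.14) held 1. Adult Ifit1 cells also had more Cd40, 158 CPM, against 113 CPM in young ones (1.39, 1.26 to 1.54), which was under 1.5-fold. In this part the neutrophil list summed to 458 CPM in adult and 263 CPM in young cells, and the fibroblast list to 55.8 and 1.58 CPM. Without cells with neutrophil transcripts the Il15 ratio was 1.26 (1.02 to 1.57) and the Cd40 ratio 1.38, and without cells with fibroblast transcripts they were 1.40 (1.14 to 1.71) and 1.39. In Csf1r cells as a whole Cd40 stood at 87.7 CPM in adult and 81.7 CPM in young cells (1.07, 1.03 to 1.12).

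Tnfsf9 stood at 43.9 CPM in adult and 51.4 CPM in young Csf1r cells (0.85, 0.81 to 0.90). In the Klrb1b part it was lower in adult, at 44.7 CPM, against 69.1 CPM in young cells (0.65, 0.55 to 0.76), the only 1 of 7 measured genes called there, where 4.04% of features were lower and 3.38% higher. In the rest it stood at 47.7 CPM in adult and 45.6 CPM in young cells (1.04, 0.95 to 1.15). Icosl was near 9 CPM in both libraries, and in the C1qa part it was higher in adult, at 12.4 CPM on 80 UMIs, against 6.81 CPM on 21 UMIs (1.82, 1.12 to 3.10), the only 1 of 8 called there, where 3.53% were higher and 4.76% lower. The young level in the C1qa part rests on 21 UMIs. Over all C1qa-positive Csf1r cells Icosl stood at 11.2 CPM in adult and 9.57 CPM in young cells.

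In the Ifit1, Ly6c2 and remaining parts 0 of the measured members were called, where 3.62%, 2.52% and 2.7% of features were higher and 5.92%, 4.84% and 3.39% lower. Cd48 and Icam1 differed by less than 1.2-fold in all 5 parts. Cd48 stood at 91.2 CPM in adult and 88.0 CPM in young Csf1r cells (1.04, 0.995 to 1.08), with 1.0 to 1.07 in the parts. Icam1 stood at 111 and 104 CPM (1.06, 1.02 to 1.10), with 0.99 to 1.17.

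In Ccr7 cells 0 of 8 genes were called between the ages, where 3.2% of 6816 features were higher in adult and 5.05% lower. Cd86 stood at 348 CPM in adult and 429 CPM in young Ccr7 cells (0.81, 0.69 to 0.95). Cd40 (1.07, 0.89 to 1.29), Tnfsf9 (1.05, 0.80 to 1.36), Cd80 (1.06, 0.74 to 1.52) and Icam1 (0.95, 0.74 to 1.21) had intervals that held 1. Il15 (0.87, 0.46 to 1.65), Icosl (0.60, 0.23 to 1.52) and Cd48 (0.97, 0.68 to 1.38) rested on few UMIs, and a 1.5-fold difference in Cd80, Il15 or Icosl lay within their intervals.

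**Figure D3:**
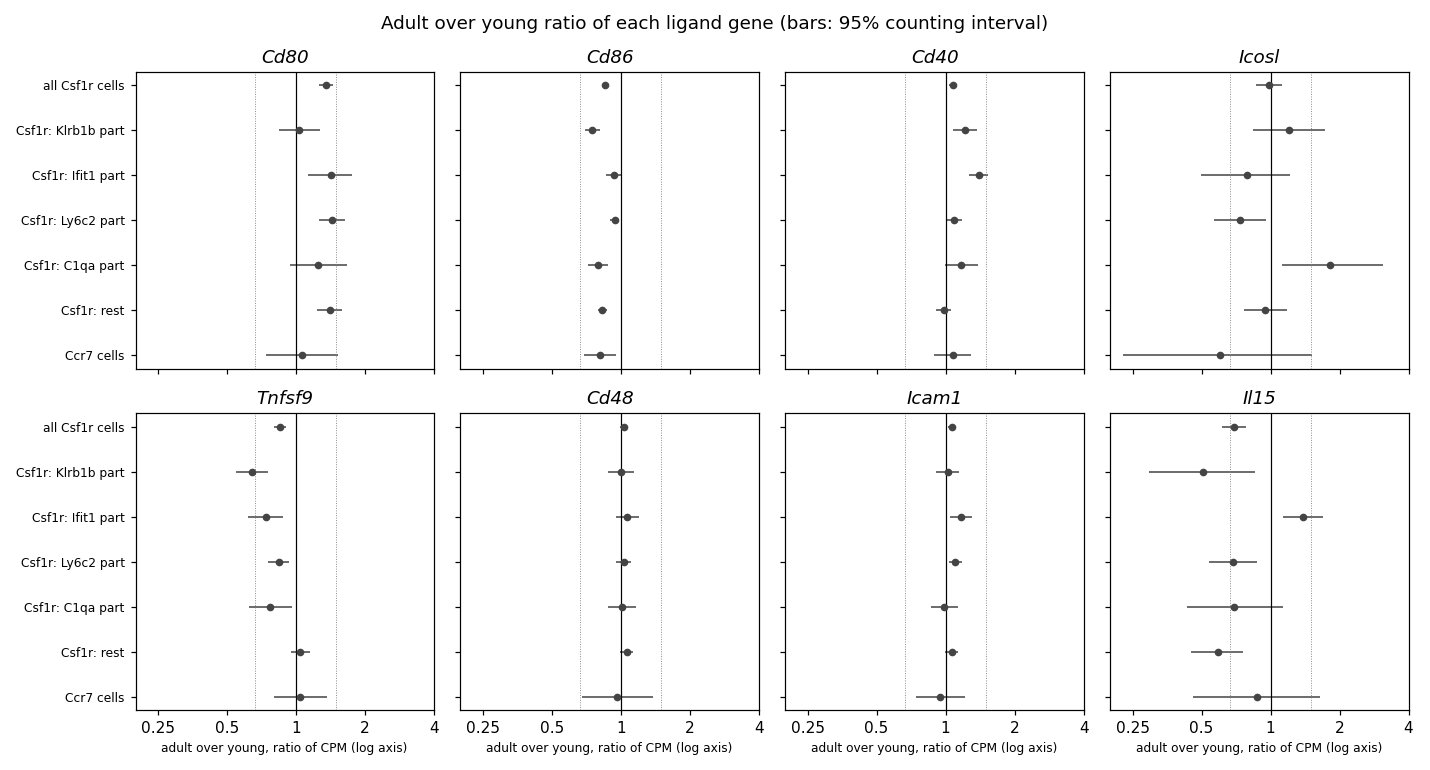
Adult over young ratio of each gene (log axis) in all Csf1r cells, in their 5 disjoint parts and in Ccr7 cells; bars are 95% counting intervals and dotted lines are 1.5-fold. The Il15 ratio is 1.38 in the Ifit1 part and 0.51 to 0.69 in the other 4 parts, and Tnfsf9 in the Klrb1b part (0.65) and Icosl in the C1qa part (1.82) lie past a dotted line. Il15 is under 10 CPM in both libraries in the Klrb1b part and the rest.

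Among related genes in Csf1r cells, 1 of 6 other costimulatory genes was lower in adult, Il18 (31.0 CPM, against 50.8 CPM, ratio 0.61). Of the 4 coinhibitory ligands, Pdcd1lg2 was higher in adult (79.2 CPM, against 48.6 CPM, ratio 1.63). Of 13 CD40 and NF-kB genes and 5 receptor genes measured, 0 were called.

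mCherry-high cells carried little RNA of these genes. All 6 genes measured in both libraries were lower than in Csf1r cells, where 33.4% of 7382 features were lower and 32% higher. Cd86 stood at 17.8 CPM in adult and 20.7 CPM in young mCherry-high cells, against 202 and 237 CPM in Csf1r cells (ratios 0.09 and 0.09), and Cd40 at 6.57 and 8.25 CPM, against 87.7 and 81.7 CPM (0.07 and 0.10). Cd80, Icosl, Cd48 and Icam1 lay at ratios of 0.07 to 0.11, with Icosl under 10 CPM in both classes. The leukocyte gene Ptprc stood at 17.5 CPM in adult and 25.0 CPM in young mCherry-high cells, against 213 and 234 CPM in Csf1r cells. Tnfsf9 (0.19, 0.16 to 0.22, and 0.14, 0.12 to 0.17) and Il15 (0.33, 0.24 to 0.44, and 0.40, 0.32 to 0.50) had the highest ratios of the 8 genes, though Il15 was not measured at 10 CPM in both libraries. Of the related genes, 5 of 5 receptors, 5 of 6 other costimulatory genes, 9 of 13 CD40 and NF-kB genes and 4 of 4 coinhibitory ligands were lower, and the NF-kB subunit Nfkb2 was higher (1.66 and 1.62). A Csf1r UMI was present in 36.6% of adult and 46.6% of young mCherry-high cells, and the part of Csf1r cells in these levels was not tested.

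Between the ages, 0 of 2 measured genes, Cd86 (0.86) and Icam1 (1.04), were called in mCherry-high cells, where 0.948% of 6648 features were higher in adult and 4.29% lower. The 3 coinhibitory ligand genes measured, Cd274 (0.63), Lgals9 (0.57) and Vsir (0.53), were lower in adult mCherry-high cells, as were 1 of 3 other costimulatory genes (Il15ra, 0.63), 1 of 12 CD40 and NF-kB genes (Nfkbie, 0.61) and 1 of 2 receptor genes (Itgb2, 0.61). The macrophage markers Lyz2, at 303 CPM in adult and 601 CPM in young mCherry-high cells, and Fcgr1, at 30.3 and 67.9 CPM, moved with these genes, and their part in the result was not tested.

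Neutrophils, the other myeloid cells in the sort, were taken as cells with a Cxcr2 UMI and no Csf1r or Cd3e UMI, 86 adult and 60 young cells with medians of 2109 and 2154 UMIs. Il15 stood there at 143 CPM in adult and 135 CPM in young cells, on 32 and 20 UMIs, above the intervals of every other class in both libraries. Cd80 stood at 152 CPM on 34 UMIs and 108 CPM on 16 UMIs, and Icam1 at 268 and 269 CPM on 60 and 40 UMIs. By contrast, Cd48 had 1 and 5 UMIs and Cd40 3 and 4 UMIs in adult and young neutrophils. Cd86 was lower in adult, at 44.6 CPM on 10 UMIs, against 114 CPM on 17 UMIs in young neutrophils (0.39, 0.16 to 0.90), the only 1 of 8 called, where 4.36% of 5912 features were lower and 2.93% higher. The C1q macrophage list (C1qa, C1qb, C1qc, Ms4a7, Mrc1 and Apoe) moved with it, at 754 CPM in adult (0 of 6 at 0) and 2236 CPM in young neutrophils (1 of 6 at 0), and its part in the result was not tested. An Il15 UMI was found in 19.8% of adult and 25.0% of young neutrophils, against 1.15% and 2.70% of the T cells described next, which were deeper (medians of 4274 and 5429 UMIs), and a Cd80 UMI in 29.1% and 16.7%, against 3.45% and 10.8%. Only 8 adult and 4 young neutrophils reached 4000 UMIs, so no share of cells at equal depth is given.

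T cells, 87 adult and 37 young cells with a Cd3e UMI and no Csf1r UMI, carried Cd48 at 286 CPM in adult and 296 CPM in young cells (0.97, 0.72 to 1.31), above every other class. Icam1 was the only 1 of 7 measured genes called between the ages there, where 5.48% of 7648 features were higher in adult and 4.21% lower. It stood at 193 CPM on 92 UMIs in adult T cells, against 45.2 CPM on 11 UMIs in young ones (4.28, 2.29 to 8.88), and 18 of the adult UMIs came from 1 cell. The antigen-presentation list summed to 3985 CPM in adult (3 of 9 at 0) and 608 CPM in young T cells (4 of 9 at 0), and the C1q macrophage list to 1013 and 554 CPM. Their part in the Icam1 difference was not tested.

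**Figure D4:**
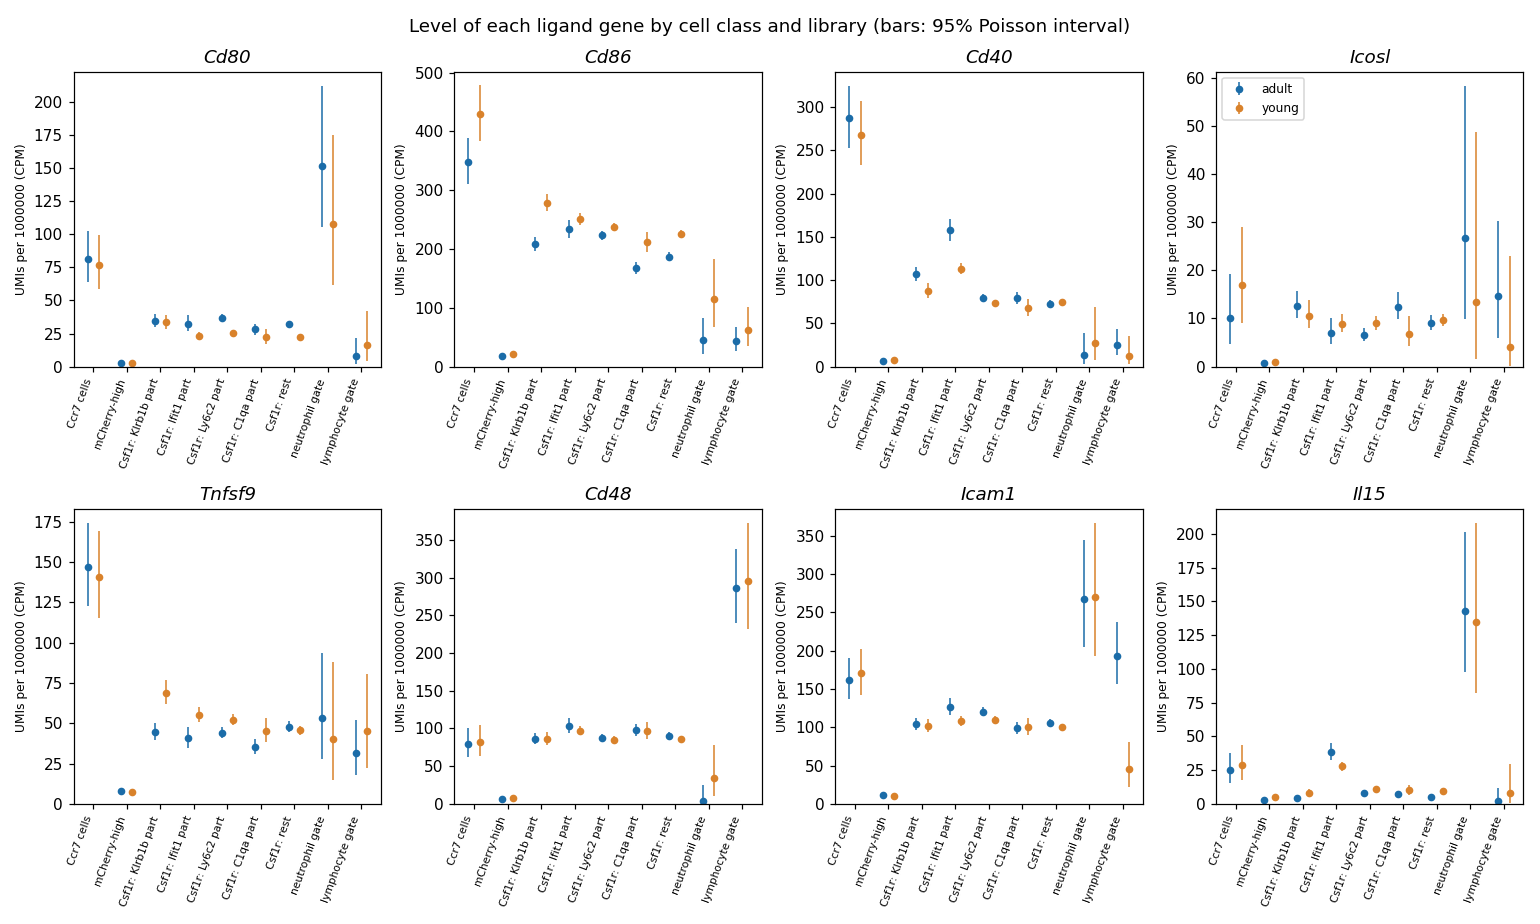
Level of each gene (CPM, vertical axes from 0) in 9 cell classes, adult in blue left of young in orange, with 95% Poisson intervals. Cd86, Cd40 and Tnfsf9 are highest in Ccr7 cells, Il15 in the neutrophil gate (143 adult and 135 young CPM), Cd48 in the lymphocyte gate (286 and 296 CPM), and all 8 genes are low in mCherry-high cells.

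In the order of the 9 classes by CPM, the neutrophil gate led for Cd80, Icam1 and Il15 in both libraries, Ccr7 cells for Cd86, Cd40 and Tnfsf9, and the lymphocyte gate for Cd48. The lead of the neutrophils for Cd80 was beyond the intervals in the adult library (152 CPM, 105 to 212, against 81.4 CPM, 63.7 to 103, in Ccr7 cells) but not in the young one. For Icam1 it was not beyond those of the next class in either library. Neutrophils had few UMIs in all, and the order per cell differed. Adult neutrophils held 0.395 Cd80 and 0.698 Icam1 UMIs per cell, against 1.0 and 1.99 in adult Ccr7 cells and 0.364 and 1.22 in adult Csf1r cells. For Il15 the 3 values were 0.372, 0.306 and 0.0989 UMIs per cell. Among the 5 parts of the Csf1r cells, most neighbours in order overlapped for Cd80, Icosl, Cd48 and Icam1, while Cd40 was highest in the Ifit1 part and next in the Klrb1b part of both libraries, each apart from the next.

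Across the 18 values of 9 classes in 2 libraries, the genes of most similar level were sought among 9714 genes by Pearson's r of log2(CPM + 5). These columns share libraries, depth and the common contrast of leukocytes with mCherry-high cells, so r is high for many genes. Tnfsf9 was closest to Rel (0.96), an NF-kB subunit, then Arhgap31 (0.96) and N4bp2l1 (0.95), and Cd80 to Gcnt2 (0.96), Zbtb42 (0.94) and Birc3 (0.93). Icam1 was closest to Junb (0.96), Ssu72 (0.95) and Hivep1 (0.95). Icosl was closest to Icam1 (0.91), with which its promoter letters are printed above, then Ddx6 (0.90) and Junb (0.89). The values for Icosl rest on few UMIs in several classes. It had 6 adult and 2 young UMIs in the neutrophil gate, 7 and 1 in the lymphocyte gate, and 9 and 13 in Ccr7 cells. Necap2 (0.95) and Grb2 (0.95) were among the genes close to Cd40. Cd86 was closest to Smim14 (0.96), Ikbkb (0.95) and Synj1 (0.95), and Cd48 to Atp2b4 (0.97), Ikzf1 (0.97) and Cnp (0.96). Il15 was closest to Gm13822 (0.94), Rab9 (0.92) and 2810474O19Rik (0.91). Among the 8 genes themselves, Cd86 and Cd40 had the value 0.94.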

How the data were processed

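Single-cell RNA was measured in 1 library from adult and 1 library from young mice. The authors deposited raw UMI counts per gene and barcode, whole numbers that were not normalised, with gene and barcode lists. Cell Ranger 3.0.2 and the build mm10 are named in the submitters' processing notes, while the sources used here name neither an annotation nor a barcode filter. GENCODE release 21 holds 99.6% of the identifiers, and 71 features share a symbol with another. From the deposited counts, cells were filtered, sorted into classes by marker UMIs, and summed per class and library with Python 3.11.15, numpy 2.4.6, scipy 1.17.1 and pandas 2.3.3. Age ratios are adult over young. Ratios carry conditional binomial (Clopper-Pearson) intervals and levels exact Poisson intervals, and PCR and capture errors lie outside them. log2 ratios used a pseudocount of 5 CPM, which shrinks the ratios of low genes. No doublet caller was run. The class rules leave out cells between the thresholds of a split (in the Ifit1 split, 515 adult and 957 young cells with 1 UMI). All 8 genes were read in each comparison, whether or not they reached 10 CPM, with values printed for the calls and for most others. Of each related list at most 4 called genes with the largest ratios are printed, with exceptions stated. The ratio step was tested on simulated counts. The genes and lists were chosen with earlier results of these data known. Alternatives covered depth, cell weight, mitochondrial and high-UMI filters, the minimum level, gates, scaling and the pseudocount. No count model was fitted, because each age is 1 library. Values of 2 genes are not reported here.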

Additional observations from a re-analysis of the deposited data

Results flagged for a closer look

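The adult over young ratio of Il15 lay above 1 in the Ifit1 part of the Csf1r cells, at 1.38 (1.13 to 1.69), and below 1 in the Klrb1b part, at 0.506 (0.295 to 0.853), with intervals that exclude 1 on opposite sides. The ratio of Icosl lay above 1 in the C1qa part, at 1.82 (1.12 to 3.10), and below 1 in the Ly6c2 part, at 0.736 (0.564 to 0.956). Il15 in the Klrb1b part (4.05 CPM adult, 8.0 CPM young) and Icosl in the Ly6c2 part (6.62 and 8.99 CPM) were under 10 CPM in both libraries. These 2 ratios were therefore outside the rule for calls. For each gene the ratios come from 1 library per age, and the difference between the parts was not tested.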

How the results depend on the processing

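Under 17 alternative settings, 1049 of 1080 ratios kept their direction, and of 329 values of called ratios, 328 kept their direction and 318 were still called. The pseudocount of 1 CPM and the setting without a minimum level could not turn a direction or undo a call. Their values in this tally were therefore fixed in advance. Of 161 summary values, 156 stayed alike. For counts this meant equal to or within 1.5 times the reported one. For medians it meant between the median lower and upper limits of the intervals of the genes. Il15 made 1 gene lower in adult Csf1r cells with at least 2 Csf1r UMIs and 1 with 0 mCherry UMIs, where 0 are reported. In the Klrb1b split 0 genes were lower after thinning and 0 without cells with neutrophil transcripts, where 1 is reported. In the Ifit1 split 1 gene was higher with any UMI against 0, where 2 are reported, since Cd40 in the young library no longer reached 1.5-fold. The log2 ratio of Icosl between adult Klrb1b-positive and Klrb1b-negative cells turned to -0.82 after thinning, against 0.41 as reported. For thinned ratios the gates were applied again to the thinned counts, which left 3201 adult and 3997 young Csf1r cells, against 4227 and 5357. Depth and class membership thus changed together and cannot be told apart in them. Thinned shares of cells kept the original classes. The Il15 age ratio in Csf1r cells ranged from -0.48 to -0.07 on the log2 scale, the last after thinning. Genes higher in Ccr7 cells of both libraries were 4 after thinning, 4 with at least 1 Ccr7 UMI, where Cd86 was not called, 6 in Ccr7 cells without Csf1r and 5 with at least 5 Ccr7 UMIs, without shared barcodes and without cells with neutrophil or fibroblast transcripts, the last 3 settings chosen after seeing the data. The cause of these shifts was not tested. No paired analysis was possible because each age is 1 library and the labels give no replicate numbers. Depth limits the genes of few UMIs most, above all Icosl and Il15 in Ccr7 cells.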

Other observations

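The receptors of these ligands were read in the T cells of the sort, 87 adult and 37 young cells with a Cd3e UMI and no Csf1r UMI, in which all 6 T cell markers were above 10 CPM. Of 14 receptor genes measured there, 2 were higher and 2 lower in adult, where 5.48% of 7648 features were higher and 4.21% lower. Cd28, the receptor of CD80 and CD86, was lower in adult T cells, at 208 CPM (169 to 253), against 378 CPM (304 to 463) in young ones (99 and 92 UMIs). Cd27, the receptor of the Cd70 product, was also lower in adult, at 103 CPM (76.2 to 136), against 291 CPM (228 to 368). Tnfrsf4 was higher in adult, at 1047 CPM (957 to 1143), against 665 CPM (567 to 776). So was the integrin chain gene Itgb2, at 252 CPM (209 to 302), against 131 CPM (89.8 to 185). Between these adult and young T cells the antigen-presentation list was higher in adult (3985 CPM, against 608 CPM) and the neutrophil list lower (39.9 CPM, against 131 CPM). Their part in the receptor differences was not tested. Tnfrsf9 stood at 1141 CPM in adult and 1063 CPM in young T cells, and Ctla4 at 509 and 718 CPM. Cd40lg had 7 UMIs in adult and 0 in young T cells.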
